A study of Mus musculus with 3 samples.

Results

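Apoptotic bodies of mature osteoclasts (mOC-ABs) were compared with apoptotic bodies of preosteoclasts (pOC-ABs), gene by gene, in the protein-coding messages they carried. Apoptotic bodies are the membrane-bound fragments into which a dying cell breaks, and they take RNA of the cell with them. The deposited reads of all transcripts of each protein-coding gene were summed, and a gene entered the comparison when the 2 libraries together held 50 or more reads of it. Of 12392 protein-coding genes listed, 10002 met this minimum and 2390 did not. The question was which functions of the parent cell differed in the RNA cargo between the early and the late stage of osteoclast formation.

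All libraries came from bone marrow of C57BL/6 mice at postnatal week 11. Floating marrow cells were grown with M-CSF at 50 ng/mL for 72 h into bone marrow macrophages (BMMs), the source of the BMM-ABs. For pOC-ABs the macrophages then received RANKL at 100 ng/mL with M-CSF at 30 ng/mL for 24 h, and for mOC-ABs the same 2 factors for 72 h or more. Per the labels, every culture was then given alendronate at 500 µM for 12 h to make it shed apoptotic bodies, so the inducer of cell death is common to all groups. The methods of the study name staurosporine as the inducer, a longer time with RANKL for mOCs and another concentration of M-CSF beside RANKL, and the labels do not settle this. There is 1 library of each kind, which means that no difference below can be set against a spread between replicates. Sample titles name the cells, whereas the description of the series speaks of apoptotic bodies, and the libraries were taken as such. The deposited counts are headed by hours only, 24h for pOC-ABs and 72h for mOC-ABs. They were matched to the samples by the time with RANKL in the labels. The number of mice behind a library is not given in the sources used here.

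Osteoclasts are giant multinucleated cells that dissolve bone. They form from macrophages: RANKL binds the receptor RANK, the transcription factor NFATc1 is induced and switches on the genes of fusion and resorption, and repressors of the osteoclast program such as IRF8 are withdrawn. The finished cell seals a pit with a ring of podosomes, pumps in acid through the V-ATPase and chloride channels, and releases cathepsin K, tartrate-resistant acid phosphatase and MMP9 to digest the matrix.

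The mRNA table held 7387317 reads in pOC-ABs and 7705592 in mOC-ABs, against 9100082 in BMM-ABs. Levels below are in CPM, reads per 1000000 reads of this table, and 3 reads, the smallest number taken as detected, are 0.406 CPM in pOC-ABs and 0.389 in mOC-ABs. Protein-coding genes took 84.8% of the reads in pOC-ABs and 87.4% in mOC-ABs. Mitochondrial ribosomal RNA took 3.88% in pOC-ABs against 1.15% in mOC-ABs and 0.767% in BMM-ABs, while transcripts with retained introns took between 3.84% and 5.22% in the 3 libraries. Genes with short transcripts were slightly lower in mOC-ABs. The median log2 ratio was -0.10 in the 2500 genes with the shortest main transcript (204 to 1880 bases) and 0.01 in the 2501 with the longest. The part of these features in the gene differences was not tested.

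Most messages had a similar share of the reads in both kinds of apoptotic body. The median log2 ratio of mOC-ABs over pOC-ABs was -0.04, and the middle 50% of genes lay between -0.32 and 0.21. A ratio above 2 was found for 202 genes, 2.02% of those compared, and a ratio below 0.5 for 407 genes, 4.07%, which makes 609 genes or 6.09% in either direction. Ratios carry an exact binomial (Clopper-Pearson) 95% interval from the reads of the gene in the 2 libraries. It lay wholly above 1 for 2425 genes (24.2%) and wholly below 1 for 2925 genes (29.2%). It lay wholly past 2-fold for 110 genes that were higher and 159 that were lower in mOC-ABs. These shares of all genes are the background for the counts of each gene list below. The intervals cover the counting of reads only, and no spread between cultures or preparations. As the reads carry no molecular identifiers, copies of the same molecule cannot be told apart, and the intervals can be too narrow. In a bulk library, fewer cells of a type and less RNA per cell cannot be told apart. Few reads widened the ratios: of the 134 genes with 50 to 59 reads, just inside the minimum, 8.21% were past 2-fold higher and 18.7% past 2-fold lower. Of the 180 genes with 40 to 49 reads, just outside it, 10.6% and 23.9% were. Among 3318 genes with 1000 reads or more the shares were 1.51% and 1.42%.

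**Figure D1:**
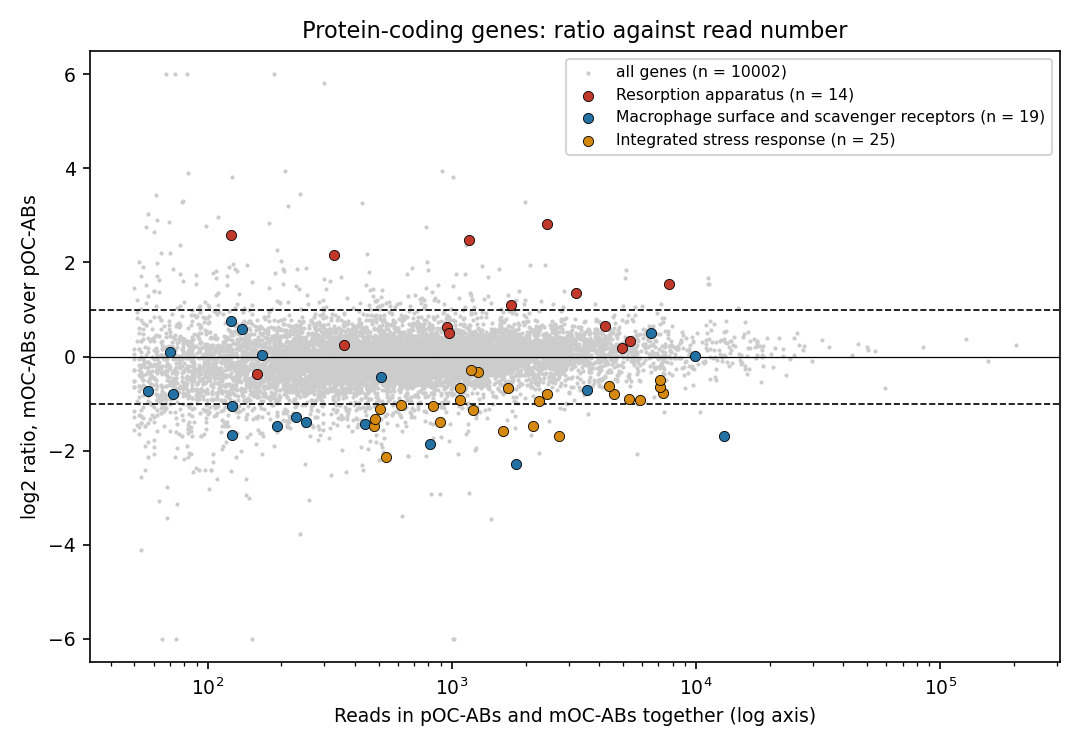
Each dot is 1 protein-coding gene, placed by its reads in both libraries together (log axis) and by the log2 ratio of mOC-ABs over pOC-ABs, with dashed lines at 2-fold and ratios drawn at 6 or -6 where 1 library had 0 reads or the ratio lay beyond. Of the coloured groups, 7 of 14 resorption genes lie above the upper line, while 9 of 19 macrophage surface genes and 11 of 25 stress response genes lie below the lower line.

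The resorption apparatus was higher in mOC-ABs. Of 16 genes of this list, 14 had the read minimum, of which 7 were past 2-fold higher (50%, against 2.02% of all genes) and 0 past 2-fold lower, with a median log2 ratio of 0.87 against -0.04 for all genes. The interval lay above 1 for 12 of the 14. Acp5, which encodes tartrate-resistant acid phosphatase, the stain used to recognise osteoclasts, had 292 reads in pOC-ABs (39.5 CPM) and 2157 in mOC-ABs (280 CPM), a 7.08-fold difference (95% interval 6.26 to 8.03). BMM-ABs held 9.67 CPM, so the level was higher at each later stage. Ctsk, for the collagen-cleaving protease cathepsin K, stood at 23.1 CPM (171 reads) in pOC-ABs and 130 CPM (1001 reads) in mOC-ABs, 5.61-fold higher (4.77 to 6.64). In BMM-ABs it was at 19.8 CPM, close to pOC-ABs. Mmp9, a gelatinase of the resorption pit, was counted 17 times in pOC-ABs and 107 times in mOC-ABs, 6.03-fold higher (3.60 to 10.7), with 8 reads in BMM-ABs. Ctsk was thus near one level at the 2 earlier stages, whereas Acp5 was already higher in pOC-ABs than in BMM-ABs.

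The ion transport members of the same list were higher too. Slc9b2, a sodium-proton exchanger of the osteoclast, had 58 reads in pOC-ABs and 269 in mOC-ABs, a 4.45-fold difference (3.34 to 6.01), and 3 reads in BMM-ABs. Car2, for carbonic anhydrase 2, the enzyme that supplies the protons, was at 259 CPM in pOC-ABs and 757 in mOC-ABs, 2.93-fold higher (2.78 to 3.08). Atp6v0d2, the V-ATPase subunit that osteoclasts use in addition to the common d1 subunit, was at 118 and 303 CPM, 2.57-fold higher (2.37 to 2.78), and at 20.5 in BMM-ABs. Slc4a2, the bicarbonate exchanger that balances the cell during acid secretion, was 2.13-fold higher (1.92 to 2.36). The chloride channel gene Clcn7 was 1.54-fold higher (1.35 to 1.76), its partner Ostm1 1.18-fold (0.957 to 1.47) and the pump subunit Tcirg1 1.26-fold (1.19 to 1.33). These 3 members differed by less than the digestive enzymes Acp5, Ctsk and Mmp9. Rab27a, a GTPase of lysosome traffic, was the 1 member of the 14 with a ratio below 1, at 1.29-fold lower with an interval from 0.935 to 1.79 that includes 1.

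The marker genes of the osteoclast and of the macrophage were set beside the labels. Acp5, Ctsk, Mmp9, Slc9b2, Car2 and Atp6v0d2 are both osteoclast markers and members of the resorption list. The marker counts are therefore no independent support for that list. Of 16 osteoclast markers, 15 were listed and 13 had the read minimum. Of these 13, 9 were past 2-fold higher in mOC-ABs (against 2.02% of all genes) and 0 past 2-fold lower. Summed, the markers stood at 777, 1163 and 3215 CPM from BMM-ABs to mOC-ABs. One defining gene went another way: Itgb3, the beta 3 integrin of the osteoclast sealing zone, had 6, 3 and 0 reads in the same order, at or near the detection limit in all of them. Calcr, the calcitonin receptor, was not analysed here. Macrophage markers remained in both libraries, at a sum of 2828 CPM in pOC-ABs and 1841 in mOC-ABs against 5900 in BMM-ABs. Of the 9 with the read minimum, 4 were past 2-fold lower in mOC-ABs, against 4.07% of all genes. Of the macrophage markers, Mrc1 and Mertk were at 5 reads or fewer in pOC-ABs and mOC-ABs. Marker lists of platelets, B cells, T and NK cells, dendritic cells, stromal cells and endothelium each summed to at most 4.93 CPM in the 3 libraries, and no erythroid, neutrophil or mast cell marker was analysed here.

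**Figure D2:**
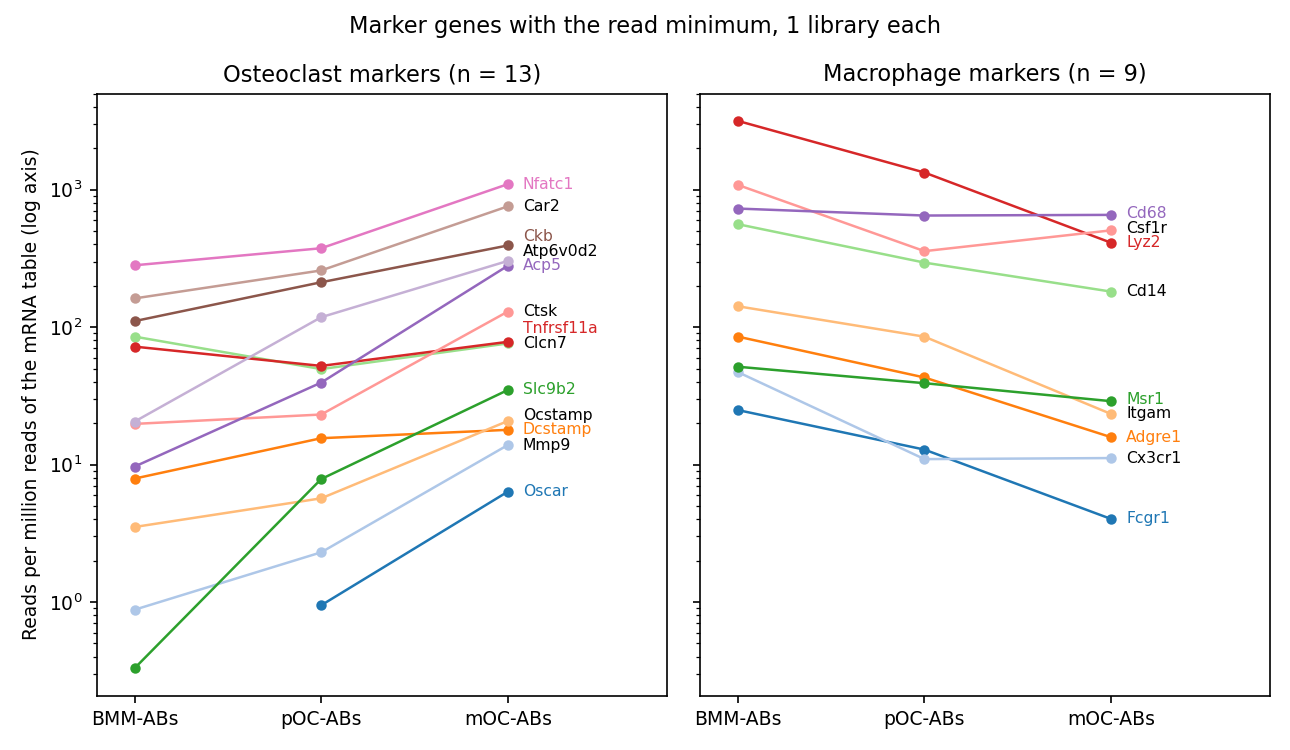
CPM (log axis) of the 13 osteoclast and 9 macrophage marker genes with the read minimum, in the 3 libraries by stage; Oscar had 0 reads in BMM-ABs and its line starts at pOC-ABs. Acp5, Ctsk, Mmp9, Ocstamp and Oscar climb between pOC-ABs and mOC-ABs, Dcstamp and Cd68 run almost level there, and Lyz2 and Fcgr1 descend.

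The V-ATPase, the proton pump itself, was shifted as a whole by less than its osteoclast subunit. Of 19 subunit genes with the minimum, 3 were past 2-fold higher and 0 past 2-fold lower, the median log2 ratio was 0.33, and the interval lay above 1 for 13 and below 1 for 0. Besides Atp6v0d2, these were Atp6v0c, the ring subunit, with 503 reads in pOC-ABs and 1369 in mOC-ABs (2.61-fold higher, 2.35 to 2.90), and Atp6v1b2, a nucleotide-binding subunit, with 2195 and 5002 reads (2.18-fold higher, 2.08 to 2.3). Atp6v1a, the catalytic subunit and one of the most abundant messages of the pump, was at 884 and 1267 CPM, 1.43-fold higher. Atp6v0a1, for a variant of the membrane subunit, was 1.18-fold lower with an interval from 0.962 to 1.44. Of 34 lysosomal hydrolase and membrane genes, 1 was past 2-fold higher, Arsb (386 against 838 reads), and the median log2 ratio was 0.21, with 18 intervals above 1 and 3 below.

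Cathepsins differed in both directions. Among 11 cathepsin and legumain genes with the minimum, Ctsk was past 2-fold higher and Ctsc, for a protease that activates granule enzymes of immune cells, was past 2-fold lower, with 186 reads in pOC-ABs and 73 in mOC-ABs (2.66-fold lower, 2.02 to 3.53). The abundant lysosomal cathepsins B and D differed by 1.11-fold each, and Ctss, a cathepsin of antigen presentation, was 1.42-fold lower (1.33 to 1.51). Among the matrix proteases, Plau, for the urokinase plasminogen activator, had 266 reads in pOC-ABs and 1060 in mOC-ABs (3.82-fold higher, 3.34 to 4.39). Adamts1 went the other way, from 90 reads in pOC-ABs to 24 in mOC-ABs (3.91-fold lower, 2.47 to 6.42). With Mmp9 this made 2 genes past 2-fold higher and 1 lower of 11, with a median log2 ratio of 0.26.

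Genes of podosomes and the sealing zone were led by the kinase Src, which organises the actin ring. It had 178 reads in pOC-ABs and 962 in mOC-ABs, 24.1 against 125 CPM and 5.18-fold higher (4.41 to 6.11), while BMM-ABs held 13 CPM. Dock5, an activator of the GTPase Rac, was 2.11-fold higher (2.0 to 2.23), with 1876 and 4138 reads. These 2 were the members past 2-fold among 26, with a median of 0.29 and 14 intervals above 1 against 3 below. Itgav, the alpha V integrin that pairs with beta 3, was at 31.8 and 62.7 CPM, 1.97-fold higher (1.68 to 2.31), although Itgb3 was near 0. Other components such as Was, Rac1 and Tln1 had log2 ratios between -0.03 and 0.04.

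The 2 fusion receptors differed from each other. Ocstamp had 42 reads in pOC-ABs and 160 in mOC-ABs (3.65-fold higher, 2.59 to 5.26). Dcstamp, its relative that is also required for cell-cell fusion, had 115 and 138 reads (1.15-fold higher), with an interval from 0.892 to 1.49 that includes 1. Ocstamp was the only one of 10 fusion genes with the minimum to be past 2-fold, and the median of the list was 0.25. Cd44, for a fusion partner at the cell surface, was 1.45-fold lower (1.32 to 1.60), and the tetraspanin gene Cd9 1.43-fold higher (1.29 to 1.60).

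Among 30 genes of RANK signalling and osteoclast transcription factors, 3 were past 2-fold higher and 1 past 2-fold lower, with a median of 0.13. Nfatc1, the master regulator, had 2772 reads in pOC-ABs and 8463 in mOC-ABs, 375 against 1098 CPM (2.93-fold higher, 2.80 to 3.06), and 282 CPM in BMM-ABs. Fosl2, an AP-1 subunit, had nearly the same numbers, with 2757 and 8427 reads (2.93-fold higher, 2.81 to 3.06). Prdm1, for Blimp1, the repressor that removes the inhibitors of NFATc1, was at 5 and 56 reads (10.7-fold higher, 4.34 to 34.4) and at 1 read in BMM-ABs. The other AP-1 genes split: Jun was 2.33-fold lower (2.17 to 2.50), with 2486 and 1112 reads, Fosl1 was 1.87-fold lower (1.38 to 2.56) and Fosb 1.94-fold higher (1.28 to 3.0). The receptor gene Tnfrsf11a, which encodes RANK, was 1.5-fold higher (1.32 to 1.71), and the adaptor Traf6 and the NF-kB genes Rela, Relb, Nfkb1 and Nfkb2 had log2 ratios between -0.01 and 0.18. The members past 2-fold were thus all transcription factors.

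Of 16 repressors of osteoclast formation, 3 were past 2-fold lower and 1 past 2-fold higher. Irf8, for a transcription factor of macrophages, had 431 reads in pOC-ABs and 207 in mOC-ABs (2.17-fold lower, 1.84 to 2.58), and the inhibitory receptor gene Lilrb4a 843 and 419 reads (2.10-fold lower, 1.86 to 2.37). Both were at their highest in BMM-ABs and at their lowest in mOC-ABs. Id3, an inhibitor of DNA binding, was the exception, with 20 reads in pOC-ABs and 69 in mOC-ABs (3.31-fold higher, 1.99 to 5.75). When the reads of all listed transcripts that overlap the Id3 gene were summed, its log2 ratio was 0.23. The remaining members, among them Bcl6 and Rbpj, had log2 ratios between -0.60 and 0.66.

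ITAM receptors provide a co-stimulatory signal of osteoclast formation beside RANK. Of 14 genes of this list, 1 was past 2-fold higher and 1 past 2-fold lower, with a median of 0.05. Oscar, the collagen-binding receptor of this family, was detected in 0, 7 and 49 reads in order of stage (BMM-ABs first), and was 6.71-fold higher in mOC-ABs than in pOC-ABs (3.02 to 17.6). Pirb, an inhibitory receptor, went from 72 to 24 reads (3.13-fold lower, 1.95 to 5.20), although it was 0.23 on the log2 scale when only transcripts annotated as protein-coding were counted. The kinase gene Syk was 1.49-fold higher (1.39 to 1.59) and the adaptor gene Fcer1g 1.35-fold lower (1.19 to 1.53). Siglec15, a sialic acid receptor of the osteoclast, had 10 and 38 reads and did not reach the minimum.

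Macrophage surface and scavenger receptors were lower in mOC-ABs. Of 19 with the minimum, 9 were past 2-fold lower (47.4%, against 4.07% of all genes) and 0 past 2-fold higher, and the median log2 ratio was -0.80. Lyz2, for lysozyme, the most abundant of these messages, stood at 3170, 1334 and 411 CPM in order of stage, and was 3.24-fold lower in mOC-ABs than in pOC-ABs (3.11 to 3.38). Its neighbour Lyz1, a near-identical copy whose reads may not be separable from it, was 4.84-fold lower (4.29 to 5.47), with 1507 and 325 reads. Adgre1, for the macrophage antigen F4/80, went from 318 to 122 reads (2.72-fold lower, 2.20 to 3.38). Fc receptor genes were among them: Fcgr1 had 95 and 31 reads (3.20-fold lower), Fcgr3 139 and 52 (2.79-fold lower) and Fcgr2b 83 and 42 (2.06-fold lower). Fcgr4 stood against them, with 45 and 79 reads (1.68-fold higher, 1.15 to 2.48). Cd36, a scavenger receptor, was 2.43-fold lower (1.82 to 3.28). Itgam, for CD11b, had 630 and 180 reads (3.65-fold lower, 3.09 to 4.33). Its span is shared with the readthrough gene Gm49368, which had 0 reads in pOC-ABs against 186 in mOC-ABs, and the log2 ratio of the locus was -0.84. Over the whole locus, 8 of the 19 members were past 2-fold lower.

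Not all macrophage genes were lower. Cd68, a lysosomal glycoprotein shared by macrophages and osteoclasts, had 649 CPM in pOC-ABs and 656 in mOC-ABs, a ratio of 1.01 (0.972 to 1.05). Csf1r, the receptor for M-CSF that both cells need, was at 357 and 506 CPM (1.42-fold higher, 1.35 to 1.49), while BMM-ABs held 1085. Cx3cr1 was at 11.0 and 11.2 CPM, after 47.1 in BMM-ABs, so that its larger difference lay between BMM-ABs and pOC-ABs. Cd14, the lipopolysaccharide co-receptor, was 1.63-fold lower (1.52 to 1.74).

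The complement list, with few members, had the largest share past 2-fold lower of the 39 lists. It was 4 of 6 (66.7%, against 4.07% of all genes), with a median of -1.44. C5ar1, the receptor for C5a, had 284, 56 and 7 reads in order of stage and was 8.34-fold lower in mOC-ABs than in pOC-ABs (3.79 to 21.7). C3ar1, the receptor for C3a, had 273 and 102 reads (2.79-fold lower, 2.22 to 3.54), and C3 itself 38 and 15 reads (2.64-fold lower, 1.42 to 5.17). The 2 members not past 2-fold lower had ratios above 1: Cfp, for properdin, which stabilises the convertase, was 1.23-fold higher (1.06 to 1.42) and Clu 1.16-fold higher, with an interval from 0.716 to 1.88. Both anaphylatoxin receptor genes were thus lower in mOC-ABs.

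Pattern recognition was mixed. Among 16 Toll-like receptor and adaptor genes, 3 were past 2-fold lower and 1 past 2-fold higher, and the median was -0.04, the same as that of all genes. Tlr7, the endosomal sensor of single-stranded RNA, had 352 and 74 reads (4.96-fold lower, 3.85 to 6.46). Tlr13, the sensor of bacterial ribosomal RNA, had 160 and 69 reads (2.42-fold lower, 1.81 to 3.26). Tlr6 was the opposite case, with 29 and 64 reads (2.12-fold higher, 1.34 to 3.40). Of 11 chemokine and cytokine genes, Cxcl2 (242 and 107 reads, 2.36-fold lower, 1.87 to 2.99) and Tnfsf9 (288 and 143 reads, 2.10-fold lower, 1.71 to 2.59) were past 2-fold, and Tnf was 1.64-fold lower (1.48 to 1.81). Spp1, for the matrix protein osteopontin, was at 650 and 1091 CPM (1.68-fold higher, 1.62 to 1.74). The locus ratio of Tnfsf9, with an overlapping gene, was -0.81 on the log2 scale.

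The integrated stress response was lower in mOC-ABs across the whole list. In this response, kinases that sense amino acid lack, unfolded protein or other stress slow translation, and the transcription factor ATF4 is made in its place and induces genes of amino acid uptake and synthesis, tRNA charging and feedback. Of 26 genes in the list, 25 were listed, and all 25 had the minimum and a ratio below 1 whose interval excluded 1, against 29.2% of all genes, and 11 (44%) were past 2-fold lower, against 4.07%. The median log2 ratio was -0.93, and the summed level was 5386, 5542 and 3085 CPM in order of stage. The 2 earlier stages were therefore close to each other, and mOC-ABs lay below both.

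Regulators and feedback genes of the response had the following values. Trib3, a pseudokinase that restrains ATF4, had 673, 433 and 103 reads in the 3 libraries in order of stage and was 4.38-fold lower in mOC-ABs than in pOC-ABs (3.53 to 5.49). Atf3 had 2312, 1194 and 415 reads (3.0-fold lower, 2.68 to 3.36). Ddit3, for the death-promoting factor CHOP, had 348 and 130 reads in pOC-ABs and mOC-ABs (2.79-fold lower, 2.28 to 3.44), but shares its span with Mars, and the locus ratio was -0.81 on the log2 scale. Chac1, which degrades glutathione, had 342 and 142 reads (2.51-fold lower, 2.06 to 3.08), and Ppp1r15a, for GADD34, which restores translation, 111 CPM in pOC-ABs against 50.9 CPM in mOC-ABs (2.18-fold lower, 1.93 to 2.47). Atf4 itself, whose control is largely at translation, was at 460 and 246 CPM (1.87-fold lower, 1.77 to 1.98).

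The metabolic members were lower as well. Asns, for asparagine synthetase, stood at 148, 280 and 86.6 CPM in order of stage and was 3.23-fold lower in mOC-ABs than in pOC-ABs (2.96 to 3.53), so that pOC-ABs held the most. Mthfd2, of mitochondrial folate metabolism, was at 210 and 75.4 CPM in pOC-ABs and mOC-ABs (2.79-fold lower, 2.53 to 3.07). The amino acid transporter genes Slc7a5 and Slc7a11 were 2.62-fold (2.26 to 3.04) and 2.03-fold lower (1.71 to 2.41), and their shared partner Slc3a2 1.59-fold lower (1.44 to 1.76). In serine synthesis, Phgdh was 1.94-fold lower (1.78 to 2.11), Psat1 1.42-fold (1.36 to 1.49) and Psph 2.16-fold (1.79 to 2.62). Psph overlaps Cct6a, and its locus ratio was -0.28, while that of Slc7a11 was -0.69. The tRNA synthetase genes Nars, Aars, Cars, Sars, Gars and Wars were between 1.25-fold and 1.88-fold lower. Of the 11 members past 2-fold, 8 were also past 2-fold lower when the reads of their whole locus were summed.

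**Figure D3:**
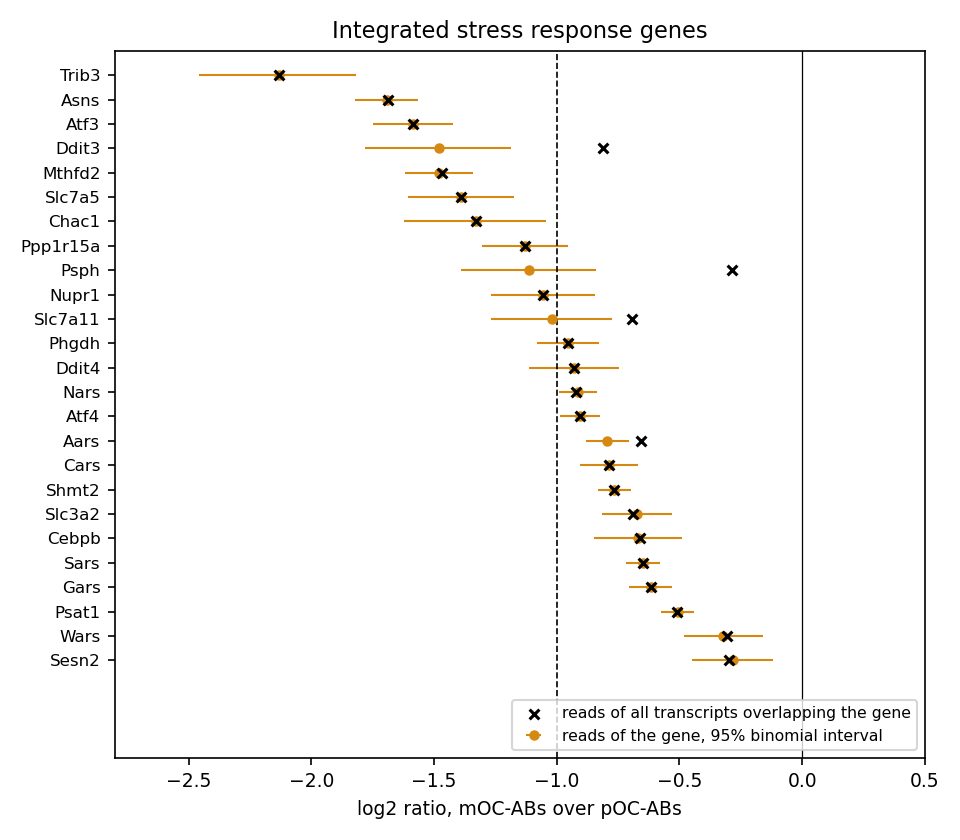
Log2 ratio of mOC-ABs over pOC-ABs for the 25 integrated stress response genes with the read minimum, where circles with bars are the reads of the gene with exact binomial 95% intervals, crosses are the reads of all listed transcripts that overlap the gene, and the dashed line marks 2-fold lower. All circles lie left of 0, and for Ddit3, Psph and Slc7a11 the cross lies to the right of the dashed line while the circle lies to its left.

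Many genes of this response carry the amino acid response element, a composite site of ATF and C/EBP factors written TGATGNAAN, near their start. It was searched on both strands in RefSeq promoters of GRCm38.p6, from 250 bases before to 50 bases after each start. Of the 11 members past 2-fold lower, 10 had a promoter in the table and 6 held the element: Asns, Atf3, Chac1, Nupr1, Slc7a11 and Trib3. Of all 27025 promoters 4.04% held it, and 2.17% of those of the genes compared here. Of all 25 members, 21 had a promoter and 8 held it. The genes of the list were named partly because they are known targets of ATF4, so the match is a description of the list. The box CCAAT was in 6 of the same 10 promoters, against 37.9% of all. The 250 bases before the start of 3 of these genes are shown because the element stands in them once near the start, once far from it, and in a pair. Lower case is the promoter, 5′ to 3′ on the strand of the gene, and capitals mark each match.
Asns, chr6:7693210-7693459 (minus strand): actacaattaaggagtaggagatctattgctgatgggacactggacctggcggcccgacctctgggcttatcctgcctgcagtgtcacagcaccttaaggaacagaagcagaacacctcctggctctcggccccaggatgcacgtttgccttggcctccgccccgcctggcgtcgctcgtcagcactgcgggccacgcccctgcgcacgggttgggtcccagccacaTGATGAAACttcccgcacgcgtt
Chac1, chr2:119350992-119351241 (plus strand): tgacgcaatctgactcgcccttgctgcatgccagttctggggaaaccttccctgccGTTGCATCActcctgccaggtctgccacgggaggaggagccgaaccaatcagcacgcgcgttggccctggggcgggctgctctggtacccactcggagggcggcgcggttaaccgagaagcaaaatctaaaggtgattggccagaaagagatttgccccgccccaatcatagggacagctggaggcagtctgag
Slc7a11, chr3:50443614-50443863 (minus strand): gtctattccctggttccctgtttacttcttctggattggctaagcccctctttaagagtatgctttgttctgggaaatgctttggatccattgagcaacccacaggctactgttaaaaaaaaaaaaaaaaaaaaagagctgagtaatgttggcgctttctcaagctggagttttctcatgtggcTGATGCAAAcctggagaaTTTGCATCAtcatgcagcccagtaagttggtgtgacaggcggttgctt
In Asns the match begins 23 bases before the start on the strand of the gene, in Chac1 194 bases before it on the other strand. In Slc7a11, 1 match begins 66 bases before the start on the strand of the gene and the other 48 bases before it on the opposite strand. No match to this element was found in the promoters of the complement, resorption and macrophage surface members past 2-fold, of which 3, 4 and 8 were in the table. As 2.17% of the promoters of the genes compared held it, so few promoters cannot show a contrast with the stress response.

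Genes of cell division were lower by a small amount. Of 33 S phase genes with the minimum, 2 were past 2-fold lower (6.06%, against 4.07% of all genes), and the median was -0.31. The interval lay below 1 for 25 and above 1 for 0, where 29.2% and 24.2% of all genes had such intervals. Fen1, the flap endonuclease of DNA replication, had 490 and 210 reads (2.43-fold lower, 2.07 to 2.87), and Ccne2, for cyclin E2, 307 and 135 reads (2.37-fold lower, 1.93 to 2.93). Neither kept a locus ratio past 2-fold. Rrm2, for ribonucleotide reductase, was at 89.1, 158 and 82.0 CPM in order of stage, 1.92-fold lower in mOC-ABs than in pOC-ABs (1.74 to 2.12), so that the level in mOC-ABs was close to that in BMM-ABs. Of 34 genes of G2 and mitosis, 0 were past 2-fold, the median was -0.25, and 21 intervals lay below 1 against 4 above. Ncapg and Smc2, for condensin subunits, were 1.78-fold (1.54 to 2.06) and 1.55-fold lower (1.41 to 1.70).

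Replication-dependent histone genes, 63 with the minimum, had a median of -0.18 and took 1.51% of the reads in pOC-ABs against 1.47% in mOC-ABs. The 2 past 2-fold higher were Hist2h2aa1 and Hist1h2bq. Hist2h2aa1 had 4641, 11 and 6450 reads in order of stage, but the locus it shares with Gm20634 had 6249 and 6562 reads in pOC-ABs and mOC-ABs, a log2 ratio of 0.01. Hist1h2bq had 2808, 177 and 1813 reads, with no overlapping gene listed, and belongs to a family of near-identical copies among which reads can be split. Both ratios are therefore uncertain.

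Energy metabolism differed in few genes. Of 23 genes of glycolysis and lactate export, Eno3, an enolase best known from muscle, was the 1 past 2-fold higher, with 324 reads in pOC-ABs and 1237 in mOC-ABs (3.66-fold higher, 3.24 to 4.15), and the median was 0.04. The ubiquitous enolase gene Eno1 was at 870 and 1205 CPM (1.39-fold higher, 1.34 to 1.43). Ckb, for the brain-type creatine kinase that osteoclasts use in acid secretion, was at 111, 212 and 393 CPM in order of stage, 1.85-fold higher in mOC-ABs than in pOC-ABs (1.74 to 1.97). Of 79 nuclear genes of oxidative phosphorylation 2 were past 2-fold lower (2.53%, against 4.07% of all genes), and the median was -0.13. They were Atp5s (90 and 25 reads) and Ndufa12 (279 and 115 reads). Cox6a2, a cytochrome c oxidase subunit gene outside this list, had 130 and 17 reads (7.98-fold lower, 4.79 to 14.1). Among 24 genes of the citric acid cycle and of mitochondrial regulation, Dld, for the dehydrogenase shared by several of its complexes, was 2.19-fold lower (1.95 to 2.46) and the median was 0.18. Of 13 mitochondrially encoded genes, mt-Atp8 was past 2-fold lower, but it overlaps mt-Atp6 and the locus ratio was -0.43.

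Of 25 genes of cholesterol synthesis and uptake, 3 were past 2-fold lower and 0 higher, with a median of -0.32 and 13 intervals below 1 against 4 above. They were Pmvk (604 and 234 reads, 2.69-fold lower, 2.31 to 3.14), Nsdhl (780 and 384 reads, 2.12-fold lower, 1.87 to 2.40) and Idi1 (972 and 502 reads, 2.02-fold lower, 1.81 to 2.25), all enzymes of the pathway. Hmgcs1, for the synthase before its rate-limiting step, was 1.90-fold lower (1.77 to 2.05). Fdps, for farnesyl diphosphate synthase, the enzyme that nitrogen-containing bisphosphonates such as alendronate inhibit, was at 218, 301 and 196 CPM in order of stage, 1.53-fold lower in mOC-ABs than in pOC-ABs (1.44 to 1.64). For each of the genes named here pOC-ABs held more than both BMM-ABs and mOC-ABs. The list as a whole did not follow this order. Summed over its 25 members it stood at 2847, 2473 and 1957 CPM in order of stage, highest in BMM-ABs. In lipid efflux and storage, Apoe had 46 and 131 reads (2.73-fold higher, 1.94 to 3.91) and Cd36 was lower as given above, 1 of 19 past 2-fold in each direction. In iron handling, Tfrc, for the transferrin receptor, was 1.95-fold higher (1.80 to 2.11), and Ncoa4, the receptor that brings ferritin to the lysosome, had 389 and 153 reads (2.65-fold lower, 2.19 to 3.22).

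Of 27 interferon-stimulated genes, 4 were past 2-fold lower (14.8%, against 4.07% of all genes) and 0 higher, with a median of -0.28. The interval lay below 1 for 14 and above 1 for 3. Ifit2 had 84 and 21 reads (4.17-fold lower, 2.56 to 7.09), Isg15, a ubiquitin-like modifier, 62 and 23 (2.81-fold lower, 1.72 to 4.76), Trim30a 228 and 105 (2.27-fold lower, 1.79 to 2.88) and Xaf1 64 and 31 (2.15-fold lower, 1.38 to 3.42). In MHC class I presentation, the immunoproteasome gene Psmb8 was the 1 of 15 past 2-fold, with 412 and 190 reads (2.26-fold lower, 1.90 to 2.70), and its partner Psmb9 was 1.82-fold lower (1.31 to 2.55). Proteasome genes in general, 38 with the minimum, had 0 past 2-fold and a median of -0.18.

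Genes of apoptosis were described because the samples are products of dying cells. Of 30, 1 was past 2-fold higher and 3 past 2-fold lower, with a median of -0.22. Bmf, a pro-apoptotic BH3-only factor, had 571, 202 and 581 reads in order of stage (2.76-fold higher in mOC-ABs than in pOC-ABs, 2.35 to 3.25), so that pOC-ABs held the least. Bcl2l1, for the survival factor Bcl-xL, had 361 and 151 reads (2.49-fold lower, 2.06 to 3.04). The inflammatory caspase genes Casp1 (283 and 119 reads, 2.48-fold lower, 2.0 to 3.10) and Casp4 (139 and 63 reads, 2.30-fold lower, 1.70 to 3.15) were lower. Of 15 efferocytosis genes, by which dying cells are taken up, Tgm2, a transglutaminase, had 307 and 764 reads (2.39-fold higher, 2.09 to 2.73) and Mfge8, a bridge to phosphatidylserine, 243 and 524 (2.07-fold higher, 1.77 to 2.42). Gas6, another bridging ligand, was 1.78-fold higher (1.56 to 2.04).

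Factors by which osteoclasts act on other bone cells went in both directions, 2 past 2-fold higher and 2 lower of 13, with a median of 0.45. Sema4d, for a semaphorin that restrains osteoblasts, had 470 and 1217 reads (2.48-fold higher, 2.23 to 2.77). Vegfc, a growth factor of lymphatic vessels, had 10, 59 and 137 reads in order of stage and was 2.23-fold higher in mOC-ABs than in pOC-ABs (1.63 to 3.07). Pdgfb, for the growth factor PDGF-BB that preosteoclasts release to recruit vessels, was at 76.5, 62.5 and 119 CPM in order of stage. It was 1.91-fold higher in mOC-ABs than in pOC-ABs (1.71 to 2.14), and pOC-ABs held the least. Vegfa and Tgfb1 had log2 ratios of 0.14 and 0.16. Igf1 was the largest difference of the list, with 221, 126 and 17 reads (7.73-fold lower in mOC-ABs than in pOC-ABs, 4.64 to 13.7), and Angptl4 had 45 and 22 reads (2.13-fold lower, 1.25 to 3.73).

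The coding genes that the study discusses as targets in receiving cells were looked up in the apoptotic bodies themselves. Kdr, for the main VEGF receptor, had 15, 8 and 38 reads in order of stage and Pecam1, for CD31, 3, 1 and 9 reads, so that neither reached the minimum. Tgfb1 was at 180 and 201 CPM (1.12-fold higher, 1.04 to 1.21). Runx2, the osteoblast transcription factor, had 36 and 16 reads (2.35-fold lower, 1.27 to 4.53). Its locus ratio, with Supt3, was -0.31, and its direction turned to 0.53 on the log2 scale with the deposited FPKM. Mef2c had 607 and 316 reads (2.0-fold lower, 1.75 to 2.30), and sits at the 2-fold limit. Alpl and C1qc were not analysed here.

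In annexins, S100 proteins and galectins, 2 of 19 were past 2-fold lower, Anxa3 (361 and 71 reads, 5.30-fold lower, 4.10 to 6.94) and Lgals9 (198 and 64 reads, 3.23-fold lower, 2.42 to 4.35), with a median of -0.35. Among 19 integrin and tetraspanin genes, 1 was past 2-fold higher and 2 past 2-fold lower. The median of this list was 0.23, with 10 intervals above 1 against 4 below. Itgal, the alpha chain of LFA-1, had 74 and 15 reads (5.15-fold lower, 2.93 to 9.65), and Itgb7 79 and 224 (2.72-fold higher, 2.09 to 3.56). The lists of the general machinery stayed near the median of all genes. Cytosolic ribosomal proteins, 81 genes, had a median of -0.00 and 1 member past 2-fold, Rpl21 with 48 and 18 reads. Splicing factors, 42 genes, had a median of -0.00 and 0 past 2-fold, and endoplasmic reticulum chaperones, 19 genes, 0.05 and 0. Antioxidant genes had 1 of 22 past 2-fold lower, Slc7a11, heat shock genes 1 of 16, Dnajb4, and the 2 genes of MHC class II presentation with the minimum 0.

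**Figure D4:**
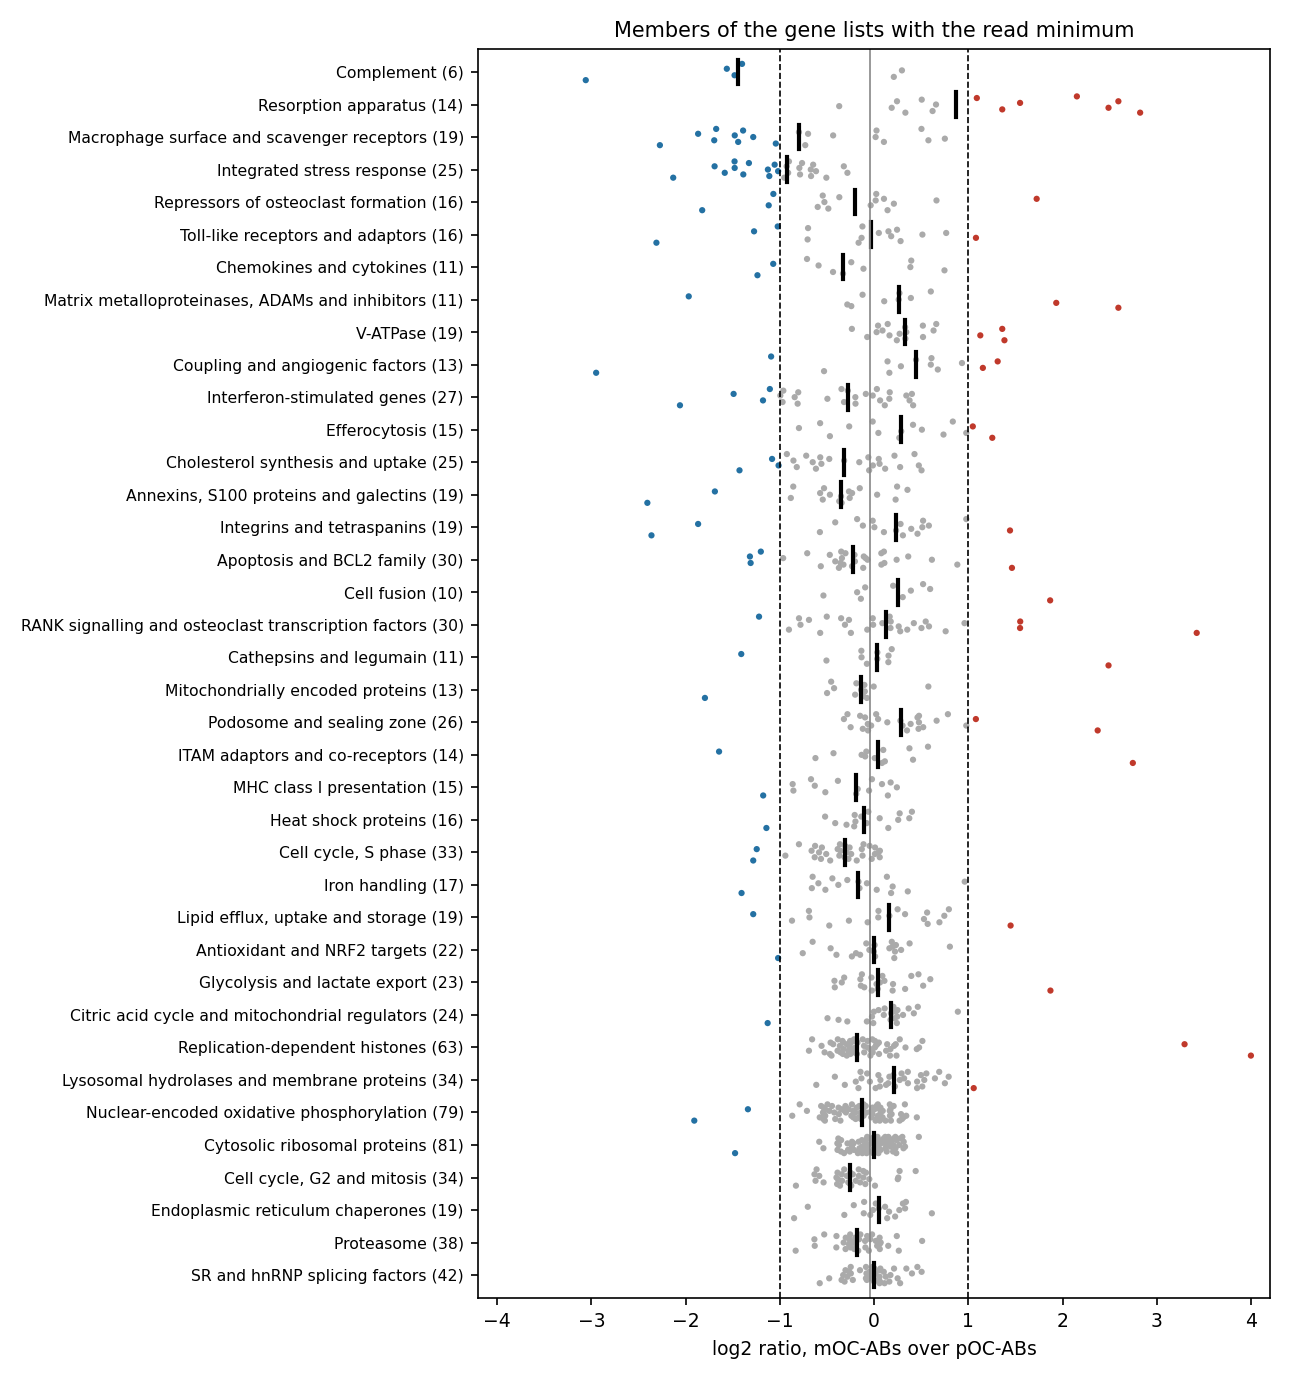
Log2 ratio of mOC-ABs over pOC-ABs for each member of the lists with 6 or more members at the read minimum (number in brackets), coloured where past 2-fold, with the median of each list as a black bar and that of all genes as a grey line; 1 histone gene beyond 4 is drawn at 4. The bar of the resorption apparatus lies at 0.87 and those of complement, the integrated stress response and macrophage surface genes at -1.44, -0.93 and -0.80, while ribosomal and splicing genes crowd around 0.

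The genes with the largest differences were ranked by the interval limit nearest to no difference. Of the 12 highest, 7 kept a ratio past 2-fold when the reads of all transcripts overlapping the gene were summed, and of the 12 lowest, 6. The highest of those that kept it was Slc6a4 (chr11:76998603-77032340), the serotonin transporter, with 1, 5 and 295 reads in order of stage, 56.6-fold higher (24.0 to 175). Selp (chr1:164115264-164150026), for the adhesion molecule P-selectin, had 0, 0 and 73 reads, 23.3-fold higher when 3 reads are set for pOC-ABs, with a lower interval limit of 18.5-fold. Atxn1l (chr8:109726451-109737739), for a chromatin factor, had 1203, 53 and 855 reads (15.5-fold higher, 11.7 to 20.8), so that pOC-ABs alone were low. Tnxb, for the matrix protein tenascin X, had 12 and 194 reads in pOC-ABs and mOC-ABs (15.5-fold higher, 8.67 to 30.5). Rasd2, for a Ras-like GTPase, had 8 and 118 (14.1-fold higher, 6.95 to 33.5), and Chst1, a sulfotransferase of keratan sulfate, 19 and 219 (11.1-fold higher, 6.91 to 18.7). Apart from Atxn1l, each of these was at 61 reads or fewer in BMM-ABs. Hist1h2bq, with the reads given above, was the seventh.

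Of the 12 lowest, Hexim1 (chr11:103116231-103119725), for an inhibitor of the elongation factor P-TEFb, had 0, 1021 and 0 reads in order of stage, 355-fold lower in mOC-ABs when 3 reads are set there, with an interval limit of 288-fold. The reads of all transcripts over its span were 38, 1043 and 17, a log2 ratio of -6.0 between mOC-ABs and pOC-ABs. Clec4e (chr6:123281789-123289870), for the receptor Mincle that senses dead cells and mycobacterial lipid, had 214, 221 and 17 reads (13.6-fold lower, 8.28 to 23.7). Cybb (chrX:9435252-9487771), for the gp91 subunit of the phagocyte NADPH oxidase, had 2769, 783 and 108 reads (7.56-fold lower, 6.18 to 9.34). Bhlhe41, a transcriptional repressor, had 1363, 1030 and 145 reads (7.41-fold lower, 6.22 to 8.88), and Cth, for cystathionine gamma-lyase, which makes cysteine, 73, 231 and 29 (8.31-fold lower, 5.63 to 12.7). Chmp1b, of the membrane-scission complex ESCRT-III, had 569 and 57 reads in pOC-ABs and mOC-ABs (10.4-fold lower, 7.92 to 13.9), with a locus log2 ratio of -1.41.

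The remaining 11 of these 24 genes did not keep a ratio past 2-fold over their locus. Among the highest they were Hist2h2aa1, Gm49368, Gm21969, Pi4ka and Gm20431, and among the lowest Gm45717, Inafm2, Gm49027, Leng9, Sept2 and Ube2v1. Gm20431 (64 reads in pOC-ABs, 942 in mOC-ABs) and Ube2v1 (720 and 99 reads) share a span and moved in opposite directions, and their locus log2 ratios were 0.23 and 0.35. Gm49368 spans Itgam, and its locus ratio was -0.83. Pi4ka had 0 reads in pOC-ABs and 67 in mOC-ABs against a locus ratio of -0.28, and Gm49027 74 and 0 reads against 0.11. Gm45717, which runs through Ifitm2, had 1010 and 0 reads against -0.80. Over all genes, 137 of the 202 that were higher and 310 of the 407 that were lower kept a ratio past 2-fold over their locus.

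**Figure D5:**
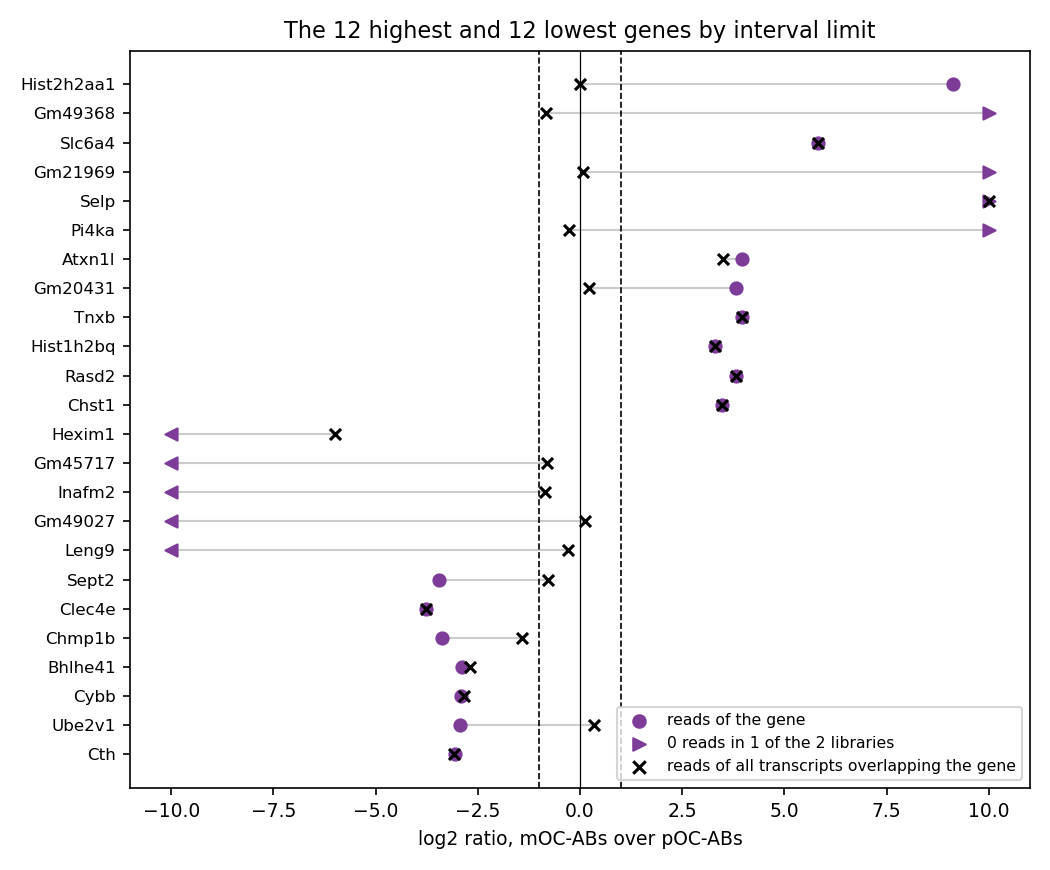
Log2 ratio of mOC-ABs over pOC-ABs for the 12 highest and 12 lowest genes, from the reads of the gene (purple, with triangles near the edges of the axis where 1 of the 2 libraries had 0 reads, as is the cross of Selp) and from the reads of all listed transcripts that overlap it (crosses); dashed lines mark 2-fold. For Slc6a4, Tnxb, Rasd2, Chst1, Clec4e, Cybb and Cth the symbols coincide or nearly so, and for 11 genes the cross lies inside the dashed lines.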

How the data were processed

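Apoptotic bodies of BMMs, pOCs and mOCs were sequenced from poly(A)-selected RNA as paired-end reads, 1 library each. The submitters' processing notes name FastQC, HISAT2, StringTie and the build GRCm38, and their versions and roles and the tool that counted reads are not given in the sources used here. The deposited mRNA table holds whole-number read counts and FPKM values per transcript, which the authors made, and the counts were used. The FPKM served as an alternative only. A lncRNA table of deposited counts gave 1 alternative total and the sums over overlapping transcripts. A circRNA table was not used here.

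Counts were summed over the transcripts of each protein-coding gene of GENCODE M21, in which 229 of 56651 transcripts had no match, and scaled to the reads of the table. Intervals were exact binomial (Clopper-Pearson) at 95%, from scipy 1.17.1 in Python 3.11.15 with numpy 2.4.6 and pandas 2.3.3, and figures were drawn with matplotlib 3.10.9. With 1 library a side no test between conditions was run. A gene was past 2-fold when its ratio was above 2 or below 0.5, and a fold against 0 reads was taken against 3 reads in that library and is given with its interval limit. The script was tested on simulated data.

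The genes, lists and comparison were chosen with earlier results of these data known. Named genes are the 12 highest and 12 lowest by the interval limit nearest to no difference, up to 5 members of each list with the largest ratios, a fixed set of osteoclast and macrophage genes, and coding genes that the study names. Other members are named for contrast and were chosen after their values were seen, as were the sums over overlapping transcripts, the check on transcript length and the lists of the closing section. The alternatives were other totals, read minimums, transcript types, FPKM, locus sums, stricter limits and halved counts. Promoters of lists with at least 1 in 4 members past 2-fold were searched for 12 motifs, of which the amino acid response element and CCAAT are given. Counts of a list cover all its members with the read minimum, of which a few are not reported here by name.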

Additional observations from a re-analysis of the deposited data

How the results depend on the processing

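The number of genes past 2-fold, 202 higher and 407 lower in mOC-ABs, depended most on the read minimum. It was 384 and 717 with a minimum of 10 reads, 125 and 218 with 200, and 703 and 1243 with none. When only transcripts annotated as protein-coding were counted, 387 genes were higher and 595 lower. Asking for the whole interval to lie past 2-fold left 110 and 159 genes, and 80 and 108 with the counts halved. Other totals gave 189 to 246 higher and 328 to 444 lower, FPKM gave 201 and 436, and locus sums 149 and 357. With the total of the mRNA and lncRNA tables the split was 246 against 328, and the median of all genes shifted by 0.10 on the log2 scale. Among 216 gene values, a turn in direction was counted only where the main ratio was past 2-fold, so smaller ratios that changed sign are not included. With locus sums the log2 ratio turned for Gm49027 (0.11), Gm49368 (-0.83), Pi4ka (-0.28) and Ube2v1 (0.35). It turned with protein-coding transcripts only for Pirb (0.23), and with FPKM for Runx2 (0.53). Beside these turns, 34 gene values left their own 95% interval with the total of both tables and 28 with FPKM. With protein-coding transcripts only and with locus sums, 26 did so in each case. The cause was not tested. Of the 39 list medians, 4 moved with the total of both tables, 1 with a minimum of 10 reads and 1 with none, past the 95% range of the median over the members. No paired analysis was possible because each kind of apoptotic body has 1 library. Depth limits genes with few reads: at 3 reads the level is 0.406 CPM in pOC-ABs.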

Other observations

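Further gene groups were described after their values were seen, because the largest differences pointed to them. Of the phagocyte NADPH oxidase, which makes superoxide, Cybb was the 1 gene of 6 past 2-fold, at 7.56-fold lower in mOC-ABs (95% interval 6.18 to 9.34). Its partner in the membrane, Cyba, had 1119 reads in pOC-ABs and 1175 in mOC-ABs, a ratio of 1.01 (0.927 to 1.09). The cytosolic subunit genes Ncf1 and Ncf4 had ratios of 1.06 (1.02 to 1.11) and 0.982 (0.910 to 1.06), and Rac2 was 1.23-fold higher (1.2 to 1.27).

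The MS4A family of tetraspan membrane proteins had 3 members with the read minimum, all past 2-fold lower, against 4.07% of all genes. Ms4a6d had 240, 122 and 21 reads in order of stage (6.06-fold lower in mOC-ABs than in pOC-ABs, 3.79 to 10.1). Ms4a6c had 333, 86 and 17 (5.28-fold lower, 3.11 to 9.47), and Ms4a6b 121, 34 and 16 (2.22-fold lower, 1.19 to 4.30). All of them were highest in BMM-ABs. Among 4 C-type lectin genes of the CLEC4 cluster, Clec4e was past 2-fold lower, its neighbour Clec4d was 1.93-fold lower (1.61 to 2.31), and Clec4a2 was 1.49-fold higher (1.05 to 2.14). Gvin1, a large interferon-induced GTPase, had 307, 269 and 49 reads and was 5.73-fold lower (4.21 to 7.93).

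A group of 14 enzymes covered serine, one-carbon and transsulfuration metabolism, and also held Pck2 and the proline synthesis genes Pycr1 and Aldh18a1. Of the 14, 6 were past 2-fold lower (42.9%, against 4.07% of all genes) and 0 higher. The median log2 ratio was -0.86, and 12 intervals lay below 1, as did 29.2% of those of all genes. Over the locus 5 were past 2-fold lower. Several of them are also members of the integrated stress response list. Besides Cth, Mthfd2 and Psph they were Aldh1l2, for mitochondrial formyltetrahydrofolate dehydrogenase, with 1819 and 457 reads (4.15-fold lower, 3.75 to 4.61, but a log2 ratio of -1.07 over the locus it shares with D10Wsu102e), Pck2, for mitochondrial PEP carboxykinase, with 980 and 260 (3.93-fold lower, 3.43 to 4.53), and Pycr1, of proline synthesis, with 149 and 65 (2.39-fold lower, 1.78 to 3.25). The cytosolic enzymes Mthfd1 and Shmt1 were on the other side, at 1.18-fold (1.08 to 1.28) and 1.08-fold higher (0.892 to 1.32), and the locus that Shmt1 shares with Smcr8 had a log2 ratio of 1.23. Of 20 cytosolic aminoacyl-tRNA synthetase genes 0 were past 2-fold, and the median was -0.47. Nars, Aars, Cars, Sars, Gars and Wars among them are also members of the integrated stress response list. The interval lay below 1 for 15 and above 1 for 2, where 29.2% and 24.2% of all genes had such intervals. Qars was 1.31-fold higher (1.21 to 1.41).

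Of 172 genes with a solute carrier (Slc) symbol, which include a few genes named after a carrier that are not carriers, 9 were past 2-fold higher (5.23%, against 2.02% of all genes) and 5 lower (2.91%, against 4.07%), with a median of 0.01. Over the locus 5 were higher and 4 lower. Beside Slc6a4 the highest was Slc18a1, the vesicular monoamine transporter, with 5, 7 and 72 reads in order of stage (9.86-fold higher in mOC-ABs than in pOC-ABs, 4.55 to 25.4). Slc18a1 overlaps the abundant gene Atp6v1b2, and the locus had 2183 and 5050 reads in pOC-ABs and mOC-ABs, a log2 ratio of 1.15, so the reads of these genes may not be separable. Of 49 genes with a Rab symbol, 1 was past 2-fold higher (2.04%) and 2 lower (4.08%), shares near those of all genes, with a median of -0.18. Over the locus neither of the lower genes was past 2-fold. Rab15, of endosome recycling, had 6, 76 and 240 reads and was 3.03-fold higher (2.33 to 3.97), with a log2 ratio of 2.47 over the locus it shares with Fntb.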
